A study of Mus musculus with 16 samples.

Results

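The muscle ubiquitin ligases and the FOXO factors that are known to drive some of them were followed in left ventricles of male C57BL/6 mice aged 8 to 12 weeks. The 9 members were the rows of the deposited gene table named *Fbxo32*, *Trim63*, *Trim54*, *Trim55*, *Asb2*, *Fbxl22*, *Foxo1*, *Foxo3* and *Foxo4*, out of 55492 listed genes. Of these, 6 are ubiquitin ligases or their substrate-binding subunits and 3 are FOXO transcription factors. PKM2-/- mice lacked PKM2, the spliced form of pyruvate kinase that contains exon 10 of *Pkm*, in every tissue, and PKM2fl/fl mice, with that exon flanked by loxP sites, were their controls. Hearts were taken without surgery (baseline, 2 libraries per genotype), or 3 days after sham surgery (3 per genotype) or permanent ligation of the left anterior descending artery to produce a myocardial infarction (MI, 3 per genotype), for 16 libraries in 6 groups. The knockout is global, so loss of PKM2 in cardiomyocytes and in other cells cannot be told apart in this model.

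Ubiquitin ligases are the last enzymes in the chain that attaches ubiquitin to a protein, and they choose which protein is marked for the proteasome. Striated muscle has its own set, which trims the contractile apparatus during atrophy and replaces damaged parts of it. The best known are MuRF1 (*Trim63*) and atrogin-1 (*Fbxo32*), which serve as standard transcript markers of muscle wasting. FOXO factors are held in the cytoplasm when insulin and AKT signalling phosphorylates them and enter the nucleus when that signal falls, and both *Trim63* and *Fbxo32* are classical FOXO targets. Since FOXO activity is set mainly by phosphorylation and location, FOXO transcript levels do not measure it.

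Values are normalized counts, which are reads per gene divided by a size factor of the library. Library depth ranged from 20623769 to 71855101 reads. *Pkm* as a whole gene had 7779 to 12076 normalized counts in PKM2fl/fl libraries and 10120 to 16113 in PKM2-/- libraries, and since only exon 10 is removed, this gene total does not check the genotype. All 15 cardiomyocyte markers were detected in every library, and their summed level was 1264200 to 1583010 at baseline and after sham surgery. After MI it was 605826, 599443 and 261310 in PKM2fl/fl hearts and 393730, 288929 and 285289 in PKM2-/- hearts. PKM2fl/fl MI replicate 3 thus stood apart from the other MI hearts of its genotype, and the member counts and genotype differences that turn on it are given below without it as well. Loci that collect ribosomal RNA reads took 15.8% to 46.0% of the reads, and their part in the results was not tested. In bulk tissue, fewer cells of a type and less RNA per cell cannot be told apart.

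After MI, the 5 tested muscle ubiquitin ligases were at 19.1% to 45.8% of their sham level, and none of them was called lower once libraries were scaled to cardiomyocyte markers. On that scale 99.5% of all calls in PKM2fl/fl and 99.3% in PKM2-/- hearts were higher, so the lack of a lower call says little about the ligases. Relative to the median gene there, they stood at log2 values of -1.84 to -1.11 in PKM2fl/fl and -2.38 to -1.28 in PKM2-/- hearts. In the deposited scaling, all 5 ligases that had enough reads to test fell in both genotypes. *Foxo3* and *Foxo4* fell with them, whereas *Foxo1* did not pass the test in either genotype. Against the markers *Foxo3* and *Foxo4* stood above 0, as the median gene did, *Foxo4* in PKM2fl/fl hearts without passing the test. Called means an adjusted p under 0.05 with limma, with all 20576 genes of mean count 10 or more tested together. By that rule 7 of the 8 tested members were lower after MI in PKM2fl/fl hearts, where 25.3% of all genes tested were lower and 50.1% were called in either direction. In PKM2-/- hearts 7 of 8 were lower too, against backgrounds of 28.1% lower and 56.8% in either direction. The median log2 fold change of the 8 members was -1.29 in PKM2fl/fl and -1.44 in PKM2-/- hearts, beside medians of 0.00 and 0.01 over all genes. With at least a 2-fold change also required, 6 of 8 members were lower in each genotype, against 11.1% and 14.3% of all genes. Without PKM2fl/fl MI replicate 3, *Fbxl22* (-0.81) and *Foxo4* (-0.94) no longer reached 2-fold in PKM2fl/fl hearts, which left 4 of 8, against 7.65% of all genes. Every MI library lay below every sham library for 7 of 8 members in each genotype, which was so for 29.0% of all genes in PKM2fl/fl and 30.6% in PKM2-/- hearts.

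**Figure D1:**
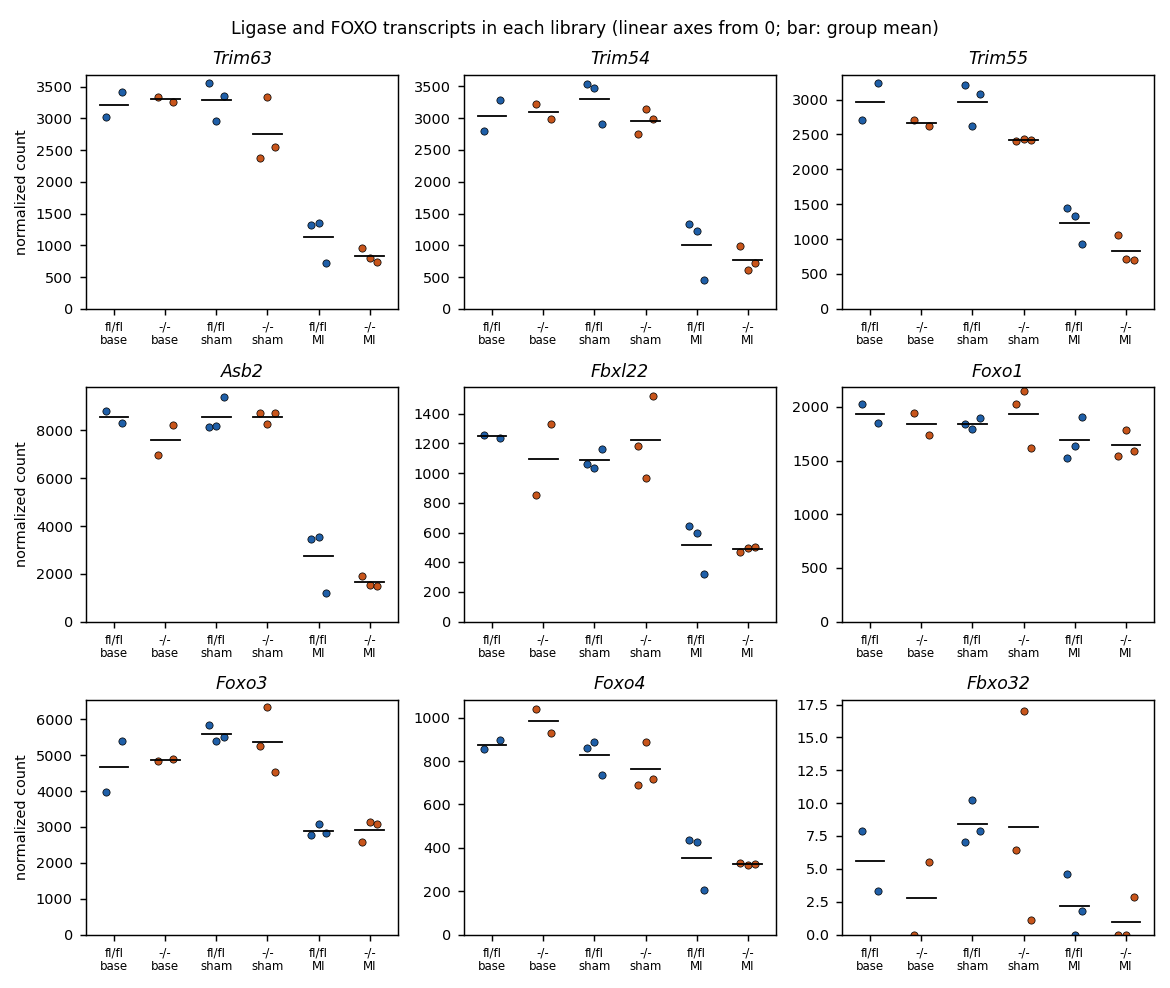
Normalized counts of the 9 transcripts in each of the 16 libraries, by genotype and treatment, on linear axes that start at 0. Points are libraries, bars are group means, and colour marks genotype. All MI points lie below all sham points for *Trim63*, *Trim54*, *Trim55*, *Asb2*, *Fbxl22*, *Foxo3* and *Foxo4*, the *Foxo1* groups overlap, and *Fbxo32* never exceeds 17.0.

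The MuRF proteins are related RING-finger ligases that sit at the sarcomere. MuRF1, encoded by *Trim63*, marks contractile proteins such as troponin I for breakdown. *Trim63* had 3549, 2963 and 3356 normalized counts in the PKM2fl/fl sham libraries and 1320, 1358 and 727 in the PKM2fl/fl MI libraries. The PKM2-/- sham libraries had 2370, 3341 and 2543, and the PKM2-/- MI libraries had 952, 800 and 737. The sham and MI groups did not overlap in either genotype, and the lowest PKM2fl/fl value after MI was that of replicate 3. The log2 fold change of *Trim63* was -1.59 ± 0.20 (SE, n = 3 per group, adjusted p = 1.24e-05, limma) in PKM2fl/fl and -1.72 ± 0.20 (adjusted p = 3.79e-06, limma) in PKM2-/- hearts, that is 3.00-fold and 3.29-fold lower.

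MuRF3, the product of *Trim54*, binds microtubules and helps to keep the contractile apparatus stable. Its transcript had 3534, 3480 and 2908 normalized counts in PKM2fl/fl sham hearts and 1332, 1229 and 455 in PKM2fl/fl MI hearts. The PKM2-/- hearts had 2747, 3151 and 2987 after sham surgery and 983, 612 and 724 after MI. Again the sham and MI hearts were fully separated, and PKM2fl/fl MI replicate 3 was the lowest of all 16 libraries. *Trim54* was 3.63-fold lower in PKM2fl/fl (log2 fold change -1.86 ± 0.29 SE, adjusted p = 9.27e-05, limma) and 3.90-fold lower in PKM2-/- hearts (-1.96 ± 0.29, adjusted p = 4.00e-05, limma). Genes on the opposite strand (*Gm15469*, *Mpv17* and *Ucn*) cover 35.9% of its exon bases, and since the counting is not stated to use strand, reads there cannot be assigned to *Trim54* with certainty.

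MuRF2, encoded by *Trim55*, links titin kinase signalling to the nucleus. *Trim55* (chr3:19644344-19692584, + strand, GRCm38.p6) had 3215, 2626 and 3074 normalized counts in PKM2fl/fl sham hearts and 1448, 1336 and 926 in PKM2fl/fl MI hearts. The corresponding values were 2402, 2437 and 2421 in PKM2-/- sham hearts and 1059, 710 and 698 in PKM2-/- MI hearts. The MI values lay below the sham values in both genotypes, and the 3 PKM2-/- sham values were the most alike of any group. The log2 fold change was -1.28 ± 0.17 (SE, adjusted p = 2.04e-05, limma) in PKM2fl/fl and -1.58 ± 0.17 (adjusted p = 2.14e-06, limma) in PKM2-/- hearts. No annotated gene overlaps the exons of *Trim63* or *Trim55*, and the longest identical stretch between transcripts of any pair of the MuRF genes was 28 bases, shared by *Trim63* and *Trim54*.

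*Asb2* encodes the substrate-binding subunit of a cullin-5 ligase that removes filamins, and it had the largest log2 fold change among the 8 tested members in PKM2-/- hearts. Its levels were 8157, 8171 and 9391 normalized counts in PKM2fl/fl sham hearts and 3458, 3548 and 1211 in PKM2fl/fl MI hearts. In PKM2-/- hearts they were 8710, 8262 and 8747 after sham surgery and 1917, 1536 and 1476 after MI. The 3 PKM2-/- MI hearts lay close together, while the PKM2fl/fl MI hearts were split between replicates 1 and 2, above all PKM2-/- MI hearts, and replicate 3, below them. *Asb2* was 3.48-fold lower in PKM2fl/fl (log2 fold change -1.80 ± 0.28 SE, adjusted p = 9.81e-05, limma) and 5.25-fold lower in PKM2-/- hearts (-2.39 ± 0.28, adjusted p = 5.27e-06, limma).

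*Fbxl22* encodes a cardiac F-box protein that targets alpha-actinin and filamin C at the Z-disc. It had 1064, 1036 and 1159 normalized counts in PKM2fl/fl sham hearts and 643, 596 and 319 in PKM2fl/fl MI hearts. Values in PKM2-/- hearts were 1182, 969 and 1517 after sham surgery and 472, 495 and 502 after MI. The groups were separated in both genotypes, with the smallest fold change among the tested ligases in each. The log2 fold change was -1.13 ± 0.23 (SE, adjusted p = 0.000712, limma) in PKM2fl/fl and -1.29 ± 0.23 (adjusted p = 0.000171, limma) in PKM2-/- hearts. *Fbxl22* lies on chromosome 9 at a distance of 6.83 megabases from *Pkm*, the gene that carries the deleted exon, and opposite-strand genes cover 11.3% of its exon bases.

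*Fbxo32* (chr15:58175879-58214892, - strand, GRCm38.p6), which encodes atrogin-1, was all but absent from these libraries. It had 81 reads in all over the 16 libraries, with 0 to 16 in any library and a highest normalized count of 17.0, in PKM2-/- sham replicate 2. Other muscle ligases from the same libraries had far more, *Trim63* 511 to 6845 reads and *Asb2* 1023 to 19157. Atrogin-1 is known as an abundant transcript of heart and skeletal muscle, so this count is low for a heart. *Gm15943*, a lncRNA on the opposite strand, overlaps 4.75% of the *Fbxo32* exon bases and was itself near 0 (mean 2.42 normalized counts), and the cause of the low count was not tested. The gene did not reach the mean of 10 needed for testing. Its reads in PKM2-/- hearts were 4, 13 and 1 after sham surgery and 0, 0 and 2 after MI, a difference that edgeR (adjusted p = 0.0339) and DESeq2 (adjusted p = 0.0360) called on the recovered reads and limma without the filter on low values did not (adjusted p = 0.110). Of all genes, edgeR called 25.5% and DESeq2 21.4% lower in that comparison. Its reads in PKM2fl/fl hearts were 12, 10 and 16 after sham surgery and 3, 0 and 2 after MI, and neither edgeR (adjusted p = 0.134), DESeq2 (adjusted p = 0.198) nor limma without that filter (adjusted p = 0.163) called it.

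The bases upstream of the ligase genes that fell together are shown since muscle factors and FOXO factors are known to act near such starts. RefSeq promoter entries (build GRCm38.p6) matched 6 of the 9 members. The 250 bases before the annotated start are printed 5′ to 3′ on the gene's strand, in lower case, with capitals for E-boxes (CANNTG), MCAT motifs (CATTCC) and the FOXO core (GTAAACA), each on either strand. The windows are chr4:134314870-134315119 (+ strand) for *Trim63*, chr5:31116362-31116611 (+ strand) for *Trim54*, chr12:103356002-103356251 (- strand) for the more upstream start of *Asb2* and chr9:66514594-66514843 (- strand) for *Fbxl22*.
Trim63: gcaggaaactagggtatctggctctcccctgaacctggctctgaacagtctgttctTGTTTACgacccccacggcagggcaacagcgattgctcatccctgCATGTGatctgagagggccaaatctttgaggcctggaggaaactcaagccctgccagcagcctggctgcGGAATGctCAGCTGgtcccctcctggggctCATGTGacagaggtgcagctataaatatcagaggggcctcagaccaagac
Trim54: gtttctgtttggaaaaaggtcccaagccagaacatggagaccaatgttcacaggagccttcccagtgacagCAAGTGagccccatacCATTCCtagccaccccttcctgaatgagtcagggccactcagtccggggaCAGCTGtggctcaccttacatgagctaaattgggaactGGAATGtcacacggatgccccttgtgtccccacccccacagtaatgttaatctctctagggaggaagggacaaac
Asb2: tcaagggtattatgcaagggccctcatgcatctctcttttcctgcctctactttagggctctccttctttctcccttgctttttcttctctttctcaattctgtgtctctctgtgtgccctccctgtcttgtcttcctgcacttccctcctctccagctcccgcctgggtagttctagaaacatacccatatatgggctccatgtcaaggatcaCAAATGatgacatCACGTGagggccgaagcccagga
Fbxl22: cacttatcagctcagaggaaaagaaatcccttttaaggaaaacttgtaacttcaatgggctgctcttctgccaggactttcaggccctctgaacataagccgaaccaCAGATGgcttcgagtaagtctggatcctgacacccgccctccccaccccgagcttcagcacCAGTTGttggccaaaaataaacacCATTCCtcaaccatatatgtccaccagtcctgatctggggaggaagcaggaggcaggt
The *Trim63* window held a FOXO core, TGTTTAC as read on this strand, 194 bases before the start, and the same letters occurred in 3.17% of 32851 promoter windows of equal length. None of the other windows held one, including those of *Foxo1*, *Foxo3* and the downstream start of *Asb2*. *Trim63* had 3 E-boxes and 1 MCAT motif, *Trim54* had 2 of each, *Fbxl22* had 2 E-boxes and 1 MCAT motif, and *Asb2* had 2 E-boxes and no MCAT motif. An E-box was found in 66.2% of all windows and an MCAT motif in 12.6%. None of the motifs shown overlaps another, and these matches describe letters only.

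The FOXO factors did not move alike. *Foxo3* (chr10:42181845-42276695, - strand), the isoform most studied in muscle atrophy, had 5844, 5412 and 5499 normalized counts in PKM2fl/fl sham hearts and 2776, 3083 and 2834 in PKM2fl/fl MI hearts. Counts in PKM2-/- hearts were 5247, 6346 and 4537 after sham surgery and 2579, 3128 and 3076 after MI. The groups were separated in both genotypes, and here PKM2fl/fl MI replicate 3 lay between the other MI hearts of its genotype. The log2 fold change of *Foxo3* was -0.95 ± 0.13 (SE, adjusted p = 3.22e-05, limma) in PKM2fl/fl and -0.87 ± 0.13 (adjusted p = 4.70e-05, limma) in PKM2-/- hearts.

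*Foxo4* (chrX:101254261-101260873, + strand) was the least counted of the tested members. It had 859, 890 and 737 normalized counts in PKM2fl/fl sham hearts and 434, 425 and 205 in PKM2fl/fl MI hearts, and the groups did not overlap. PKM2-/- hearts had 691, 887 and 718 after sham surgery and 332, 319 and 326 after MI, also without overlap. The log2 fold change was -1.30 ± 0.21 (SE, adjusted p = 0.000131, limma) in PKM2fl/fl and -1.22 ± 0.21 (adjusted p = 0.000160, limma) in PKM2-/- hearts.

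*Foxo1* (chr3:52268337-52350109, + strand), which is also prominent in endothelium, had 1838, 1790 and 1901 normalized counts in PKM2fl/fl sham hearts and 1527, 1636 and 1908 in PKM2fl/fl MI hearts. For PKM2-/- hearts the counts were 2024, 2151 and 1615 after sham surgery and 1547, 1787 and 1590 after MI. The groups overlapped in both genotypes, and PKM2fl/fl MI replicate 3, the lowest heart of its group for all 5 tested ligases, was the highest of its group here. The log2 fold change was -0.13 (95% interval -0.37 to 0.11, adjusted p = 0.365, limma) in PKM2fl/fl and -0.23 (-0.47 to 0.02, adjusted p = 0.106, limma) in PKM2-/- hearts. Without PKM2-/- sham replicate 3, the lowest sham value, *Foxo1* was called lower in PKM2-/- hearts (log2 fold change -0.35, adjusted p = 0.0153, limma), where 25.9% of all genes were. Leaving out the lowest sham value enlarges a fall by construction, so this call only shows how far the result rests on that heart.

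The balance between the FOXO factors was also compared within each library, where no scaling enters. This ratio was chosen after the separate values were seen, restates them and is given as a description. The log2 ratio of *Foxo1* to *Foxo3* counts was -1.60 ± 0.07 (SD, n = 3) in PKM2fl/fl sham and -0.78 ± 0.18 in PKM2fl/fl MI hearts, and -1.48 ± 0.09 and -0.83 ± 0.11 in PKM2-/- hearts. For *Foxo1* to *Foxo4* it was 1.16 ± 0.19 and 2.33 ± 0.78 in PKM2fl/fl and 1.33 ± 0.20 and 2.33 ± 0.14 in PKM2-/- hearts, sham and MI in turn. In all 4 comparisons every MI heart lay above every sham heart.

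Levels were compared between genes per length, as normalized counts per kilobase of annotated exon. That length joins the exons of all annotated transcripts, 14.8 kilobases for *Asb2* and 3.27 for *Trim63*. The length expressed in these hearts was not measured, and the order of genes depends on it. Before division *Asb2* had 8573 ± 709 and *Trim63* 3289 ± 298 normalized counts (SD, n = 3) in PKM2fl/fl sham hearts. On the measure per kilobase *Trim63* was highest there at 1006 ± 91.2 (SD, n = 3) and stood clear of the rest. *Foxo3* at 605 ± 24.8, *Trim54* at 581 ± 61.0 and *Asb2* at 577 ± 47.7 came next and overlapped each other. *Trim55* at 287 ± 29.8, *Fbxl22* at 242 ± 14.4 and *Foxo4* at 234 ± 22.8 followed, each overlapping its neighbour. *Foxo1* was the lowest of the tested members at 199 ± 5.97, and *Fbxo32* stood at 0.915 ± 0.183. After MI in PKM2fl/fl hearts the span narrowed, with *Trim63* at 347 ± 108 and *Foxo3* at 314 ± 17.7 overlapping at the top. *Foxo1* at 182 ± 21.1 then lay within the spread of *Asb2* (184 ± 89.2) and *Trim54* (177 ± 84.2), and above the highest values of *Trim55* (89.5 to 140), *Fbxl22* (71.1 to 143) and *Foxo4* (57.8 to 122). In PKM2-/- MI hearts *Foxo3* was highest at 317 ± 32.9, followed by *Trim63* at 254 ± 33.7, which overlapped it, and by *Foxo1* at 177 ± 13.8.

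Markers of the cell types in the tissue also differed between sham and MI hearts, and their part in the member levels was not tested. Of 15 cardiomyocyte markers, 14 fell in PKM2fl/fl (median log2 fold change -1.80) and 15 in PKM2-/- hearts (median -1.99), while 8 of 11 tested leukocyte markers rose in each, and 6 of 8 fibroblast markers rose and 1 fell. Scaling every library to the 15 cardiomyocyte markers moved the median of all genes by 1.67 in PKM2fl/fl and 2.12 in PKM2-/- hearts (log2). On that scale 99.5% of all calls in PKM2fl/fl and 99.3% in PKM2-/- hearts were higher after MI, against 49.5% and 50.5% in the deposited scaling. Against the markers, *Trim63* (log2 fold change 0.11, 95% interval -0.33 to 0.55), *Trim54* (-0.17, -0.61 to 0.28) and *Asb2* (-0.10, -0.51 to 0.30) had intervals that included 0 in PKM2fl/fl hearts. They did so in PKM2-/- hearts too, at 0.41 (-0.03 to 0.85), 0.17 (-0.27 to 0.62) and -0.26 (-0.66 to 0.15) in turn. *Trim55* was at 0.41 in PKM2fl/fl (adjusted p = 0.0925, limma) and was called higher than the markers in PKM2-/- hearts (0.55, adjusted p = 0.0260, limma). *Fbxl22* was called higher in both, at 0.57 (adjusted p = 0.0361, limma) and 0.84 (adjusted p = 0.00309, limma).

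*Foxo1* and *Foxo3* were called higher in both genotypes on the cardiomyocyte marker scale, on which the median gene rose as well. Relative to that median *Foxo1* stood at -0.11 in PKM2fl/fl and -0.21 in PKM2-/- hearts, *Foxo3* at -0.92 and -0.86, and *Foxo4* at -1.28 and -1.21. The absolute values follow. *Foxo1* was at 1.56 (adjusted p = 0.000133, limma) in PKM2fl/fl and 1.91 (adjusted p = 1.01e-05, limma) in PKM2-/- hearts. *Foxo3* was at 0.75 (adjusted p = 0.0213, limma) and 1.27 (adjusted p = 0.000376, limma). *Foxo4* was at 0.40 (adjusted p = 0.113, limma) in PKM2fl/fl and was called higher in PKM2-/- hearts, at 0.91 (adjusted p = 0.000988, limma). In all, 3 members in PKM2fl/fl and 5 in PKM2-/- hearts were called higher and 0 lower on this scale, where 84.9% and 89.5% of all genes tested were called higher and 85.3% and 90.1% in either direction. Which cells carried the *Foxo1* reads was not tested.

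**Figure D2:**
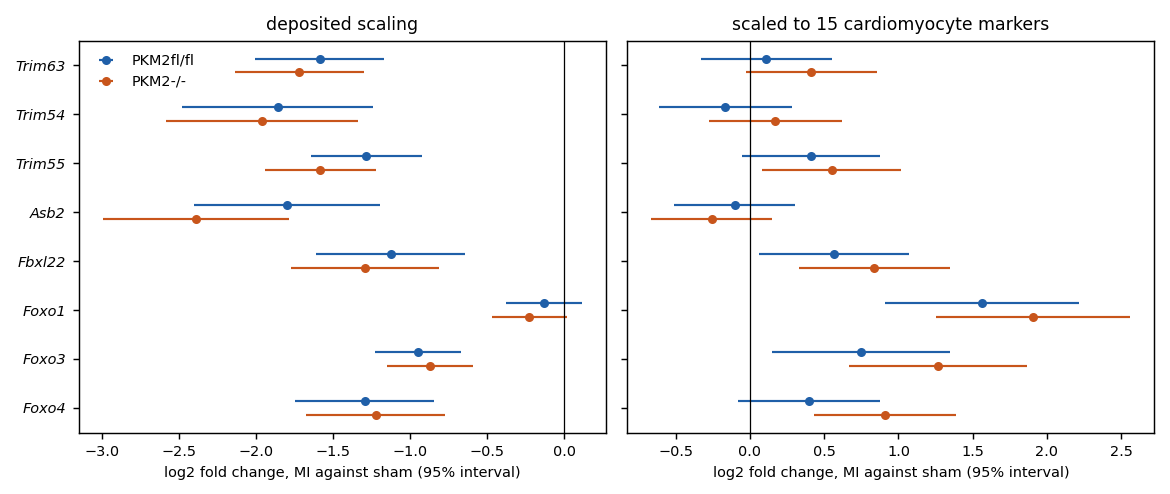
Log2 fold change of each tested member, MI against sham, with 95% intervals from limma, in PKM2fl/fl and PKM2-/- hearts. In the deposited scaling (left) every member but *Foxo1* has an interval below 0, and scaled to the 15 cardiomyocyte markers (right) the intervals of *Trim63*, *Trim54* and *Asb2* include 0 in both genotypes while *Fbxl22*, *Foxo1* and *Foxo3* lie above 0.

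The same can be read library by library, as normalized counts per 1000000 of the summed cardiomyocyte marker count. *Asb2* had 5633 to 6065 in PKM2fl/fl sham and 4634 to 5919 in PKM2fl/fl MI hearts, and *Trim54* had 1878 to 2441 and 1743 to 2199. The sham and MI ranges overlapped for both genes. They also overlapped for *Trim54* in PKM2-/- hearts (2027 to 2173 and 2119 to 2539). *Asb2* there was lower in every MI heart (4869 to 5317) than in any sham heart (5593 to 6890), but limma did not call it on the marker scale (adjusted p = 0.214). *Foxo1* had 1227 to 1269 in PKM2fl/fl sham and 2521 to 7301 in PKM2fl/fl MI hearts, and *Fbxl22* had 720 to 749 and 994 to 1221, without overlap. How many of all genes separate on this measure was not computed. Most genes rose on the marker scale, with 84.9% called higher in PKM2fl/fl and 89.5% in PKM2-/- hearts. For PKM2fl/fl MI replicate 3, *Foxo1* was the highest of all 16 libraries on this measure at 7301.

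**Figure D3:**
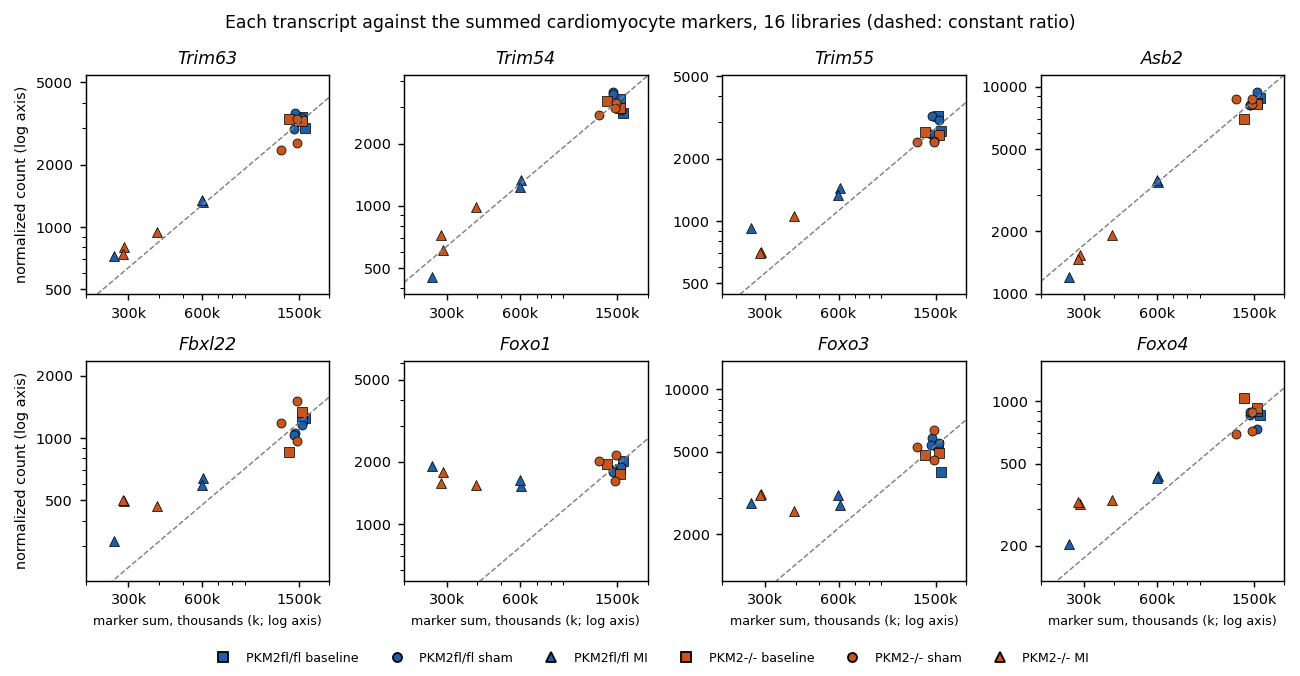
Normalized count of each tested member against the summed normalized count of 15 cardiomyocyte markers in the 16 libraries, both on log axes, with genotype by colour and treatment by symbol. The dashed line is the mean ratio of the 10 baseline and sham libraries, and *Trim63*, *Trim54* and *Asb2* stay near it after MI. *Trim55*, *Fbxl22*, *Foxo1*, *Foxo3* and *Foxo4* lie above it in every MI library.

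Markers of skeletal muscle and fat were low or absent. The skeletal muscle myosins *Myh1*, *Myh2* and *Myh4* and the myogenic factor *Myod1* had at most 5.83 normalized counts in any library, and *Myod1* was at 0 in 14 of 16. The summed level of all 10 skeletal muscle markers was 113 to 310. The 5 adipocyte markers summed to 2.65 to 101, with *Lep* at 0 in 15 libraries, while the atrial markers, of which *Nppa* is also a stress gene of the ventricle, summed to 1636 to 11652 and the 5 erythroid markers to 3952 to 21438. The endothelial marker sum was 13678 to 16370 in PKM2fl/fl sham and 17101 to 18837 in PKM2fl/fl MI hearts, and 16257 to 16812 and 17978 to 19686 in PKM2-/- hearts. Their part in the *Foxo1* levels was not tested. The smooth muscle marker sum was 2921 to 3234 in PKM2fl/fl sham and 7047 to 7936 in PKM2fl/fl MI hearts, where 3 of 4 markers rose. For PKM2-/- hearts it was 3463 to 5664 and 4753 to 6781, which overlap, and 2 of 4 markers rose and 1 fell.

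The surgery itself was compared next, sham against baseline. None of the 8 tested members was called in PKM2fl/fl hearts, where 0.190% of all genes were, and none in PKM2-/- hearts, where 5.14% were, and 0 had an unadjusted p under 0.05 in either. On the recovered reads edgeR and DESeq2 also called 0 members, with 0.112% and 1.66% of all genes called in PKM2fl/fl and 3.19% and 7.18% in PKM2-/- hearts. Log2 fold changes ran from -0.20 to 0.27 in PKM2fl/fl and from -0.37 to 0.18 in PKM2-/- hearts. The 95% intervals reached from -0.74 to 0.82 and from -0.87 to 0.85, so that with 2 baseline hearts a change of the size of the *Fbxl22* fall after MI lay outside them. *Foxo4* at -0.37 in PKM2-/- hearts was the lowest of these values, with 1038 and 931 normalized counts at baseline and the sham values given above.

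Whether PKM2 bears on these transcripts was asked at baseline, after sham surgery and after MI. At baseline 0 of 8 members differed between genotypes, with 0.00972% of all genes called, and after sham surgery again 0 of 8, with 0.00972%. By limma, 0 members had an unadjusted p under 0.05 at either stage. edgeR and DESeq2 called 0 as well, where they called 0.00432% and 0.0793% of all genes at baseline and 0.00864% and 1.37% after sham surgery. Log2 fold changes, PKM2-/- against PKM2fl/fl, ran from -0.22 to 0.17 at baseline and from -0.29 to 0.15 after sham surgery. *Trim55* had the lowest sham value (-0.29, 95% interval -0.65 to 0.07, adjusted p = 0.618, limma), and its 3 PKM2-/- sham hearts all lay below the 3 PKM2fl/fl sham hearts, which was so for 8.28% of all genes.

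After MI, 0 of 8 members were called between genotypes, where 0.967% of all genes were, and the call depended on a single heart. *Trim55* was at -0.59 ± 0.17 (SE, PKM2-/- against PKM2fl/fl, adjusted p = 0.0984, limma), *Asb2* at -0.59 ± 0.28 (adjusted p = 0.307, limma) and *Trim63* at -0.40 ± 0.20 (adjusted p = 0.313, limma). *Trim55* alone had an unadjusted p under 0.05 with limma. edgeR called 0 members beside 0.596% of all genes, and DESeq2 called *Trim55* (adjusted p = 0.0306) as the sole member, beside 5.64%. *Trim54* was at -0.26 (95% interval -0.88 to 0.36), *Fbxl22* at -0.02 (-0.50 to 0.46), *Foxo4* at -0.05 (-0.50 to 0.41), *Foxo1* at -0.04 (-0.28 to 0.21) and *Foxo3* at 0.01 (-0.27 to 0.29). Every member's groups overlapped.

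Without PKM2fl/fl MI replicate 3, 5 of 8 members were called lower in PKM2-/- than in PKM2fl/fl MI hearts, where 7.71% of all genes tested were lower and 11.1% called in either direction. They were *Asb2* (log2 fold change -1.10, adjusted p = 6.88e-05, limma), *Trim55* (-0.79, adjusted p = 0.00414), *Trim54* (-0.75, adjusted p = 0.00676), *Trim63* (-0.70, adjusted p = 0.00523) and *Foxo4* (-0.40, adjusted p = 0.0400). *Fbxl22* was at -0.34 (adjusted p = 0.235, limma), *Foxo1* at 0.05 and *Foxo3* at 0.00 there. The heart left out was chosen for its low cardiomyocyte marker sum. It was the lowest of its group for the 5 tested ligases and *Foxo4*, so leaving it out lowers these differences by construction. These calls only show how far the result rests on that heart. The remaining PKM2fl/fl MI hearts had cardiomyocyte marker sums of 605826 and 599443, above all 3 PKM2-/- MI hearts. With all 16 libraries scaled to the cardiomyocyte markers, 0 members were called between genotypes after MI, where 0.131% of all genes were. On that scale *Asb2* stood at -0.08 (95% interval -0.48 to 0.33), *Trim63* at 0.11 (-0.33 to 0.55) and *Trim55* at -0.07 (-0.54 to 0.39). Divided by the marker count in the same way, *Asb2* had 4634 to 5919 in PKM2fl/fl MI and 4869 to 5317 in PKM2-/- MI hearts, an overlap that rests on PKM2fl/fl MI replicate 3 at 4634. The other PKM2fl/fl MI hearts, at 5708 and 5919, lay above all PKM2-/- MI hearts, and the marker scaled values were not tested without replicate 3.

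**Figure D4:**
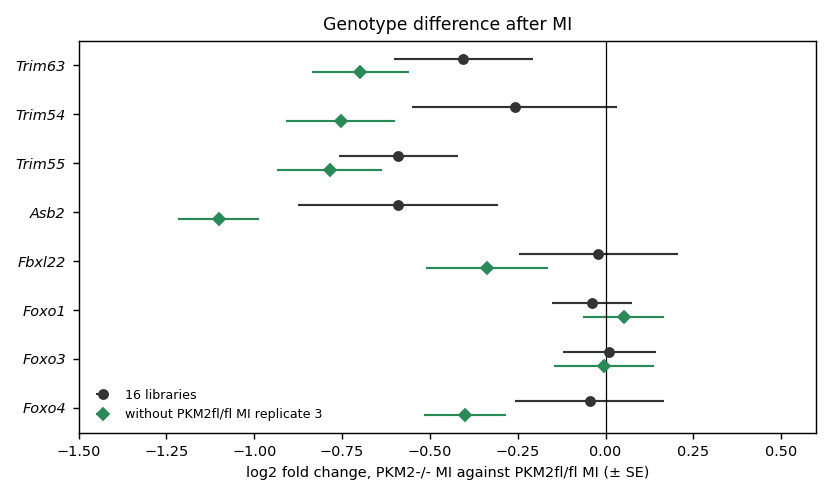
Log2 fold change of each tested member, PKM2-/- MI against PKM2fl/fl MI hearts, with standard errors from limma, in all 16 libraries and without PKM2fl/fl MI replicate 3. Leaving that heart out moves the 5 ligases and *Foxo4* toward lower values in PKM2-/- hearts, *Asb2* from -0.59 to -1.10, while *Foxo1* and *Foxo3* stay near 0.

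The difference between the genotypes in the response to MI was tested as an interaction. None of the 8 members was called, and 0% of all genes were, although 1703 genes had an unadjusted p under 0.05 with limma, edgeR called 0 genes and DESeq2 called 52 (0.243%), with 0 members called by either. The values ran from -0.59 for *Asb2* (95% interval -1.45 to 0.26) to 0.08 for *Foxo3* (-0.32 to 0.47). Without PKM2fl/fl MI replicate 3, *Asb2* was called (-1.10, adjusted p = 0.00358, limma), as the sole member, beside 2.37% of all genes. That heart had the lowest *Asb2* value of its group, so leaving it out moves the interaction in this direction by construction.

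Total read scaling was the other scaling that moved the genes as a whole, with the median of all genes at -0.18 in PKM2fl/fl and 0.52 in PKM2-/- hearts for MI against sham. It called 39.4% of the genes past the threshold higher in PKM2fl/fl and 79.3% in PKM2-/- hearts. The 5 tested ligases stayed lower and called in both genotypes on that scale, where 17.7% and 9.19% of all genes were lower. In PKM2-/- hearts *Foxo3* (-0.36, adjusted p = 0.358, limma) and *Foxo4* (-0.71, adjusted p = 0.0648, limma) were no longer called, and *Foxo1* turned to 0.29 (adjusted p = 0.448, limma).

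The ligases work within larger complexes and beside relatives, and the other muscle and cardiac ubiquitin ligases split between directions. Of 25 tested, 12 fell and 4 rose after MI in PKM2fl/fl and 14 fell and 4 rose in PKM2-/- hearts, with median log2 fold changes of -0.24 and -0.35 beside 0.00 and 0.01 over all genes. Over all genes 25.3% fell and 24.8% rose in PKM2fl/fl and 28.1% fell and 28.7% rose in PKM2-/- hearts, which is the background for each list here. Scaled to the cardiomyocyte markers, 0 of the 25 were lower and 21 higher in each genotype. *Fbxo31*, an F-box protein, fell from 1853 ± 85.2 to 653 ± 191 normalized counts (SD, n = 3) in PKM2fl/fl hearts (log2 fold change -1.55, adjusted p = 2.06e-05, limma) and was at a log2 fold change of -1.71 in PKM2-/- hearts. The following pairs are log2 fold changes in PKM2fl/fl and PKM2-/- hearts in turn, all called. *Neurl2* (Ozz), a muscle ligase subunit, fell (-1.06 and -1.58), as did *Rnf207*, a cardiac RING protein tied to repolarization (-1.62 and -2.12), and *Fbxo21*, an F-box protein linked to atrophy (-0.84 and -0.82). The supply side was covered by cullin, E2 and ubiquitin genes. Of 18 genes for cullin complexes and ubiquitin supply, 10 fell and 1 rose in PKM2fl/fl, and 7 fell and 1 rose in PKM2-/- hearts (medians -0.40 and -0.20), while on the cardiomyocyte marker scale 0 were lower and 18 higher in each. The conjugating enzyme *Ube2b* had the smallest p of that list in PKM2fl/fl hearts (-1.19 and -1.38), and *Skp1a*, the adaptor that F-box proteins bind, fell (-0.70 and -0.57).

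Regulators and targets of the FOXO factors also moved in both directions. Of 22 upstream regulators, 9 fell and 3 rose in PKM2fl/fl and 10 fell and 4 rose in PKM2-/- hearts (medians -0.12 and -0.22). The share called in either direction was near that of all genes (50.1% and 56.8%), and on the cardiomyocyte marker scale 0 were lower in either genotype and 19 and 18 higher. *Klf15*, a glucocorticoid-responsive factor that works with FOXO factors in muscle, fell from 1694 ± 401 to 372 ± 124 normalized counts in PKM2fl/fl (log2 fold change -2.21, adjusted p = 3.27e-06, limma) and from 2143 ± 442 to 390 ± 84.9 in PKM2-/- hearts (-2.46). *Stk4*, the MST1 kinase that phosphorylates FOXO factors, rose (0.84 and 0.96). *Pik3ip1*, an inhibitor of PI3 kinase, fell (-1.84 and -1.49), as did *Prkaa2*, a catalytic subunit of AMPK (-1.16 and -1.72). Of 26 genes linked to FOXO as targets, 13 fell and 2 rose in PKM2fl/fl, and 12 fell and 4 rose in PKM2-/- hearts (medians -0.42 and -0.33), again near the share of all genes in either direction. On the cardiomyocyte marker scale 0 of these targets were lower and 21 and 23 higher. In the deposited scaling a larger share of both lists fell than of all genes (25.3% and 28.1%). A smaller share of both rose than of all genes (24.8% and 28.7%). *Sesn1*, a stress-induced inhibitor of mTORC1 signalling, fell (-1.41 and -1.48), and so did *Sod2*, the mitochondrial superoxide dismutase (-1.52 and -1.75), and *Map1lc3b*, an autophagosome protein (-0.87 and -0.85). *Fbxo31* stands on this list too.

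Among 20 substrates and binding partners of the ligases, 11 fell in each genotype, and 2 rose in PKM2fl/fl and 3 in PKM2-/- hearts (medians -0.45 and -0.52). The list holds cardiomyocyte markers, and scaled to those markers 2 were lower and 13 higher in PKM2fl/fl and 0 lower and 13 higher in PKM2-/- hearts. The interaction called 0 genes of each of these lists. Filamin A (*Flna*), an actin crosslinker that the ASB2 ligase removes, was among those that rose while *Asb2* fell. *Flna* went from 4274 ± 204 to 14370 ± 2127 normalized counts in PKM2fl/fl hearts (log2 fold change 1.74, adjusted p = 4.40e-08, limma) and from 4998 ± 245 to 16596 ± 401 in PKM2-/- hearts (1.73). It is also made by fibroblasts, smooth muscle and leukocytes, and the part of these cells, whose marker levels are given above, was not tested. *Ckm*, the muscle creatine kinase and itself a cardiomyocyte marker, fell (-2.23 and -2.52), as did the cardiac myosin light chain kinase *Mylk3* (-1.83 and -2.31).

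Across the 16 libraries, which share the MI against sham difference, other genes followed the members closely. Likeness was Pearson's correlation of log2 values over 16 libraries among 15467 other genes with a mean of at least 50, given as a description. For *Trim63* the closest were *Insr*, the insulin receptor (r = 0.995), *Myo7b* (0.994), *Tmem182* (0.993), *Dcaf11* (0.993) and *Mmut* (0.993). For *Trim54* they were *Asrgl1* (0.994), *Gpc1* (0.994), *Gm15469* (0.993), *Pink1* (0.993) and *Rtn2* (0.993), and *Gm15469* overlaps *Trim54* on the opposite strand. *Foxo1* was less closely followed, by *Gm28529* (0.894), *Gm38034* (0.885), *Thsd4* (0.871), *Rere* (0.844) and *Gm15713* (0.843). The values of *Fbxo32* are too sparse for such a comparison to be read, with *Kdm4b* (0.826), *Npas2* (0.824), *Zfp574* (0.785), *Hr* (0.772) and *Dnajc18* (0.770) at the top.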

How the data were processed

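RNA from left ventricle was depleted of rRNA and sequenced paired-end. The authors' steps were PRINSEQ trimming, HISAT2 alignment (mm10), featureCounts for gene counts and DESeq2 normalization. The counter's strand and multi-mapping settings are not given in the sources used here. The deposited values used are a normalized signal per library, reads divided by a size factor. The deposited mean, log2 fold changes, their standard errors, Wald score and p-values of the authors' own comparison were not used. Division by the step of each library gave whole reads (100.0% within 0.02 read up to 10000 reads), so depth was known. No column of values was left without a sample (0).

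Log2(value + 1) was fitted with limma 3.58.1 (trend, R 4.3.3) in one model of 16 libraries and 6 groups, on 20576 genes whose mean reached 10, with Benjamini-Hochberg adjustment over all of them. A fold change is on the log2(value + 1) scale. The reads entered edgeR 4.0.16 and DESeq2 1.42.0 as alternatives, which called 10741 and 10857 genes for MI against sham in PKM2fl/fl hearts. The fits were tested on simulated data. Other alternatives were TMM, total read and cardiomyocyte marker scaling, no filter, a pseudocount of 0.1, only the groups compared, a replicate block, each library left out, and a 2-fold limit. Tables and figures were made in Python 3.11.15.

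Named genes were the 9 members, *Pkm*, the 4 genes of each list with the smallest p for MI against sham in PKM2fl/fl hearts, and the 5 genes most like *Fbxo32*, *Trim63*, *Trim54* and *Foxo1*. Some genes that this rule names are not reported here. Members and lists were chosen with earlier results of these data known. Marker genes are named as their list's defining genes and overlapping genes as neighbours of a member. Exon lengths and overlaps are from GENCODE M39 on GRCm39, positions and promoters from RefSeq GRCm38.p6. Replicates are separate mice.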

Additional observations from a re-analysis of the deposited data

How the results depend on the processing

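The call of 7 members lower after MI held in PKM2fl/fl hearts under every alternative but 2: the added 2-fold limit left 6, and cardiomyocyte marker scaling called 3, all higher. In PKM2-/- hearts 5 were lower under total read scaling and 6 with the 2-fold limit. There edgeR and DESeq2 called 8, the added member being *Fbxo32*, which the main test left out. They did not call *Foxo1* (adjusted p = 0.103 with edgeR and 0.125 with DESeq2). Without PKM2-/- sham replicate 3, limma called 8, the added member being *Foxo1*. Cardiomyocyte marker scaling called 5 in PKM2-/- hearts, all higher. Leaving out each library in turn gave 7 to 7 members in PKM2fl/fl and 7 to 8 in PKM2-/- hearts. Between genotypes after MI, DESeq2 called 1 member, and leaving out each library gave 0 to 5, with 5 without PKM2fl/fl MI replicate 3. For the interaction these were 0 to 1. Over the libraries left out, the genotype difference after MI ran from -0.75 to 0.019 for *Trim54*, -0.34 to 0.17 for *Fbxl22*, -0.11 to 0.051 for *Foxo1*, -0.040 to 0.10 for *Foxo3* and -0.40 to 0.14 for *Foxo4*, so their direction was not fixed. The cause was not tested.

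Same-numbered libraries correlated at -0.20 to 0.13 in their deviations, which gave no sign of pairing by number. With so few libraries per group this check cannot exclude it. A replicate block left the member counts at 7, 7 and 0 for MI against sham in PKM2fl/fl and PKM2-/- and for genotype after MI. Counts over all genes ranged with the setting from 6007 to 17547 for MI against sham in PKM2fl/fl, 9114 to 18541 in PKM2-/-, 1 to 356 and 92 to 1427 for sham against baseline, 0 to 48, 0 to 273 and 6 to 2279 between genotypes at baseline, after sham surgery and after MI, and 0 to 486 for the interaction, where the largest numbers of the last 2 came without PKM2fl/fl MI replicate 3 (2279 and 486, against 199 and 0 with all libraries). The 0 to 16 reads of *Fbxo32* allow no firm comparison, and the cause of this low count was not tested.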

Other observations

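Within groups, that is after each group's mean was removed, several members still varied together over the 16 libraries: Pearson's r was 0.87 between *Trim63* and *Trim54*, 0.89 between *Asb2* and *Trim54* and 0.92 between *Foxo4* and *Trim54*. *Foxo1* went the other way, with r of -0.77 to *Fbxl22*, -0.59 to *Trim54* and -0.54 to *Asb2*. PKM2fl/fl MI replicate 3 enters all of these values. It was the lowest of its group for the tested ligases and *Foxo4* and the highest for *Foxo1*, and r without it was not computed. The points share their libraries and scaling, and the values are a description.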
